A study of Trichosurus vulpecula with 6 samples.

Results

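Cholesterol synthesis in skin was examined through 7 sterol-regulated genes, HMGCS1, IDI1, FDFT1, SQLE, LSS, DHCR7 and INSIG1, out of 18008 possum genes with at least 1 assembled transcript. They were chosen by name as genes of cholesterol synthesis and its feedback control, with no threshold on a measured value. Of the 7, 6 encode enzymes, and INSIG1 encodes a regulator. RNA-sequencing was carried out on skin from ear punches of brushtail possums (Trichosurus vulpecula) from Dunedin, New Zealand, all 6 of them adult females, 3 with black fur and 3 with grey fur. Fur colour defined the groups, and no treatment or engineered allele is named in the labels. The study set black against grey skin to look into the basis of coat colour. Here the same comparison was made for the sterol pathway, together with the variation of its genes from animal to animal.

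Cells build cholesterol from acetyl-CoA. HMG-CoA is turned into mevalonate, then into isoprenoid units, squalene, lanosterol and finally cholesterol. When sterols are scarce, the transcription factor SREBP-2 is released from the endoplasmic reticulum and raises transcription of the enzymes of the whole route, whereas INSIG proteins hold it back when sterols are plentiful. In mammalian skin, keratinocytes make cholesterol for the lipid barrier of the epidermis, and sebaceous glands make squalene and other lipids of sebum.

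Values are TPM, an abundance measure scaled to transcript length and to library size, summed here over the transcripts of a gene. The libraries held 6.47 to 8.51 gigabases of aligned sequence in black skin and 4.17 to 10.2 gigabases in grey skin, and grey replicate 1 was the shallowest. RefSeq genes took up 81.5% to 89.3% of TPM. Black replicate 1 stood apart by skeletal muscle RNA, with 10 tested muscle markers summing to 3385 TPM, against 7.67 to 16.6 TPM in the other 5 libraries. CKM and TTN, muscle genes picked after their values were seen, were listed at 0 in those 5. Not every marker was, since NEB had 1.10 to 5.37 TPM there. Keratinocyte markers were present in all libraries, at summed suprabasal levels of 2691 to 3130 TPM in black skin and 1854 to 3162 TPM in grey skin. Each library is 1 animal. In bulk skin, fewer cells of a type and less RNA per cell cannot be told apart.

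All 7 genes were well expressed in every library, and none differed between black and grey skin beyond the spread between animals. Their levels lay between 15.8 and 172.9 TPM, which corresponds to between 1060 and 23238 reads per gene and library. The log2 fold change, black minus grey, lay between -0.30 for SQLE and 0.35 for INSIG1. Of the 7, 0 passed an adjusted p of 0.05 in limma and 0 had an unadjusted p under 0.05. Over all 15576 genes tested, 3 passed, or 0.0193%, and 356 had an unadjusted p under 0.05. For 0 of the 7 genes were the groups without overlap, against 4.06% of tested genes with every black library above every grey one and 2.28% with every black library below. The median fold change of the 7 genes was -0.10, with 2 above 0 and 5 below, against 0.04 over all tested genes. All fold changes given here were computed from log2(TPM + 1), which understates changes of low genes.

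The mevalonate arm was represented by HMGCS1 and IDI1. HMGCS1 (chr1:409157851-409186314, minus strand, assembly mTriVul1.pri), the cytosolic synthase that makes HMG-CoA, had 53.7, 110.9 and 94.8 TPM in black skin, against 68.8, 112.5 and 87.3 TPM in grey skin. The lowest library was black replicate 1, and the groups overlapped almost completely. HMGCS1 averaged 86.5 ± 29.5 TPM in black skin and 89.6 ± 21.9 TPM in grey skin (SD, n = 3 each), a log2 fold change of -0.09 (SE 0.31, 95% interval -0.83 to 0.66). Its highest level was 2.10 times its lowest, close to the 2.08 times of IDI1. IDI1 (chr5:81633617-81644363, plus strand), which interconverts the isoprenoid building blocks, had 41.7, 86.8 and 56.9 TPM in black skin, against 43.8, 56.0 and 45.6 TPM in grey skin. In TPM, black replicate 2 was well above all others and black replicate 1 was the lowest. The means were 61.8 ± 23.0 TPM in black skin and 48.5 ± 6.63 TPM in grey skin, and the log2 fold change was 0.29 (SE 0.28, 95% interval -0.37 to 0.95). This value was 0.02 with 1 fixed length per gene, 0.015 without black replicate 2 and 0.54 without black replicate 1. The leading IDI1 transcript was assembled at 1802 and 1807 bases in black replicates 2 and 3. In the other libraries it had 2352 to 2379 bases. TPM is divided by this length, so the IDI1 levels of these libraries are not on the same footing.

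Of the squalene enzymes, FDFT1 (chr3:259302635-259348855, minus strand), squalene synthase, commits carbon to sterols. It had 66.1, 99.1 and 74.0 TPM in black skin, against 76.8, 96.2 and 92.4 TPM in grey skin, with the black libraries spanning more than the whole grey range. Its means were 79.7 ± 17.2 TPM in black skin and 88.5 ± 10.3 TPM in grey skin, and its log2 fold change was -0.16 (SE 0.20, 95% interval -0.63 to 0.31). SQLE (chr1:113766276-113810238, minus strand), the squalene epoxidase and a rate-limiting step of the route, was the gene of lowest level. It had 15.8, 26.6 and 19.6 TPM in black skin, against 21.5, 29.9 and 24.9 TPM in grey skin, so that only black replicate 2 reached the grey range. Its means were 20.7 ± 5.49 TPM in black skin and 25.4 ± 4.25 TPM in grey skin, and its log2 fold change was -0.30 (SE 0.23, 95% interval -0.86 to 0.25). It was -0.13 without black replicate 1 and -0.49 without black replicate 2.

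LSS (chr7:9912733-9947284, plus strand) folds squalene epoxide into lanosterol, the first sterol. It had 22.7, 32.0 and 27.3 TPM in black skin, against 25.1, 35.2 and 27.8 TPM in grey skin, and the groups overlapped. Its log2 fold change was -0.10 (SE 0.20, 95% interval -0.58 to 0.38). DHCR7 (chr6:280871067-280891375, minus strand) reduces 7-dehydrocholesterol to cholesterol at the end of the route, and in skin it competes for the substrate from which light makes vitamin D. DHCR7 had the highest level of the 7 genes, at 110.7, 140.5 and 104.8 TPM in black skin, against 114.2, 172.9 and 112.6 TPM in grey skin. In each colour, 1 library stood above the other 2. Its means were 118.7 ± 19.1 TPM in black skin and 133.3 ± 34.4 TPM in grey skin, and its log2 fold change was -0.15 (SE 0.22, 95% interval -0.68 to 0.38).

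INSIG1 (chr5:89026669-89047498, minus strand) encodes a protein of the endoplasmic reticulum that retains the SREBP escort protein SCAP when sterols are high, and is itself a target of SREBP. It had 38.3, 39.2 and 49.9 TPM in black skin, against 29.0, 41.9 and 29.4 TPM in grey skin. Black replicate 3 was the highest, and grey replicate 2 lay among the black libraries. The means were 42.5 ± 6.44 TPM in black skin and 33.4 ± 7.33 TPM in grey skin. The log2 fold change of 0.35 (SE 0.21, 95% interval -0.14 to 0.84) had an unadjusted p of 0.14 and an adjusted p of 1.00 in limma.

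**Figure D1:**
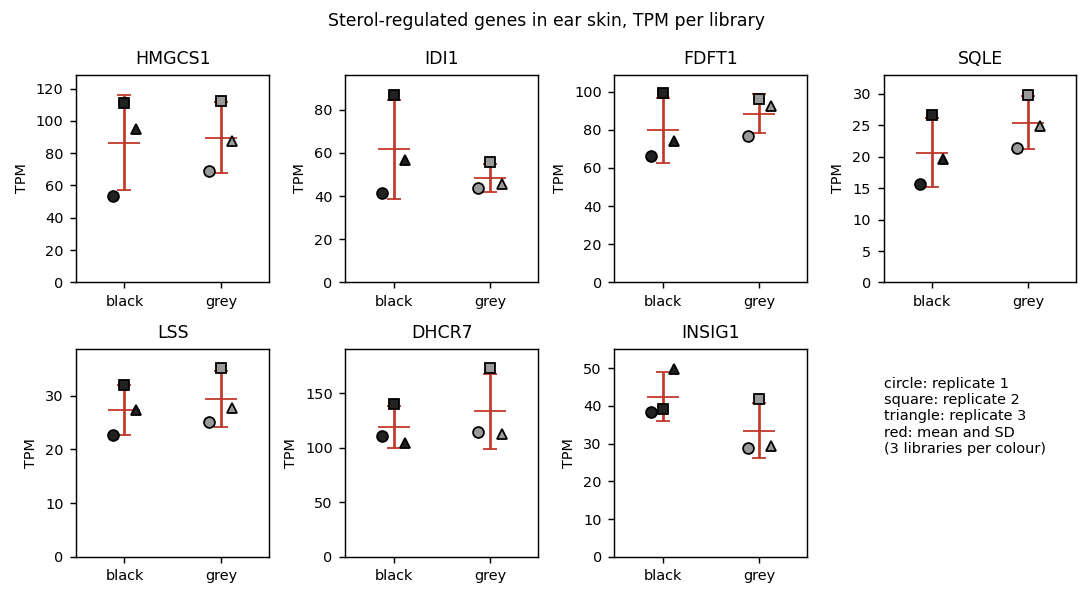
Level of each gene in TPM (vertical axis, from 0) in black and grey ear skin, 1 point per library, with the mean and SD of 3 libraries in red. The groups overlap for all 7 genes, and replicate 2 of each colour is at or near the top for the 6 enzymes.

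The order of levels was DHCR7, HMGCS1, FDFT1, IDI1, INSIG1, LSS and SQLE, with means over 6 libraries of 126.0 TPM for DHCR7 and 23.0 TPM for SQLE. HMGCS1 and FDFT1 did not differ beyond their spread, since HMGCS1 was the higher in 3 of 6 libraries and the median ratio was 1.03. Each other gene of this order was above the next in 6 of 6 libraries, the closest being LSS over SQLE with a median ratio of 1.19.

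The animals of 1 colour differed more than the colours did. The 7 genes together summed to 348.9, 535.1 and 427.2 TPM in black skin, against 379.1, 544.7 and 420.0 TPM in grey skin. In each colour, replicate 2 was the highest and replicate 1 the lowest. Black replicate 2 and grey replicate 2 were each among the highest 2 libraries for 6 of the 7 genes. Black replicate 1 was among the lowest 2 for 6 of the 7 and grey replicate 1 for 4 of the 7. The spread of the single genes lay on both sides of the median of all tested genes. The median SD of log2(TPM + 1) over 6 libraries was 0.30 for the 7 genes and 0.32 for all tested genes. It ran from 0.22 for LSS to 0.39 for IDI1 and 0.41 for HMGCS1. The tested genes include many of lower level, so the medians are not matched for level.

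**Figure D2:**
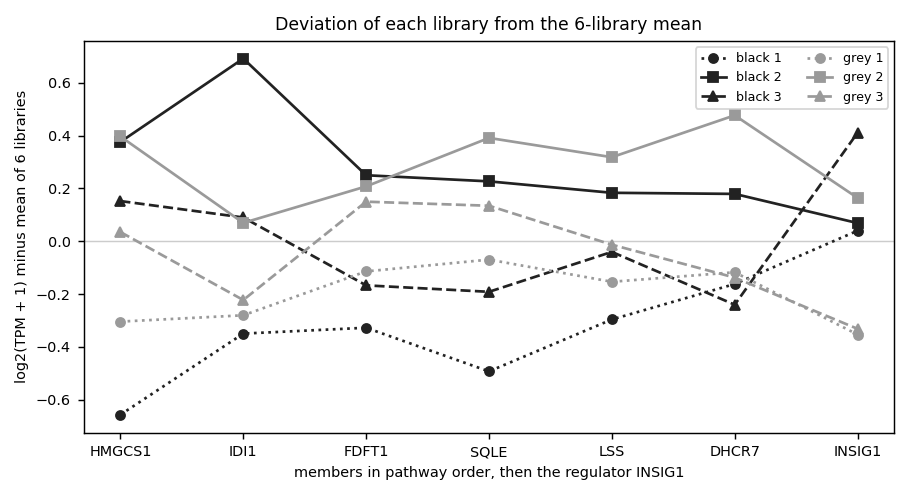
Deviation of each library from the mean of 6 libraries, in log2(TPM + 1) (vertical axis), for the 6 enzymes in pathway order and then INSIG1, with 1 line per library. Replicate 2 of both colours runs above 0 for all 7 genes and black replicate 1 runs below 0 for all 6 enzymes, whereas for INSIG1 the highest library is black replicate 3.

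The 6 enzymes had similar profiles over the animals, although no single pair passed after adjustment, and the correlations with INSIG1 were lower. Over 6 libraries, Pearson's r of log2(TPM + 1) between the enzymes was above 0 in 15 of 15 pairs, with a median of 0.79 and a range of 0.48 to 0.96. The 6 pairs with INSIG1 had a median r of 0.23 and a range of -0.11 to 0.45. Over all 21 pairs the median r was 0.69, 19 were above 0 and 3, or 14.3%, were at 0.9 or more. Over the pairs of all tested genes the median r was 0.01, 51.0% were above 0 and 0.970% were at 0.9 or more. Of the 21 pairs, 7 had an unadjusted p under 0.05 in an exact 2-sided permutation test of Pearson's r, all between enzymes. After adjustment over the 21 pairs 0 passed by Pearson's r and 0 by Spearman's rho. The pairs share libraries and genes and are not independent, and the exact test over 6 libraries cannot give a p below 0.0014 for Pearson's r or 0.0028 for Spearman's rho. With that limit, a pair could pass the adjustment over 21 pairs by Spearman's rho only if other pairs also had low p. The count of 0 for rho therefore says little.

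The closest pair was FDFT1 and SQLE, which encode consecutive enzymes that make and oxidise squalene. Their r was 0.96 (exact permutation p = 0.0056, adjusted p = 0.068) and their Spearman's rho 0.94 (exact permutation p = 0.017, adjusted p = 0.12). The relation held at r = 0.95 without black replicates 1 and 2, the libraries farthest from the median of FDFT1. Next came HMGCS1 and LSS, with r = 0.94 (exact permutation p = 0.0097, adjusted p = 0.068), rho = 0.94 (exact permutation p = 0.017, adjusted p = 0.12) and r = 0.90 without black replicate 1 and grey replicate 1. SQLE and LSS, again consecutive enzymes, had r = 0.93 (exact permutation p = 0.0097, adjusted p = 0.068) and rho = 0.94 (exact permutation p = 0.017, adjusted p = 0.12). For this pair r was 0.74 without black replicate 1 and grey replicate 2.

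Taken in pathway order, r between one enzyme and the next of the 6 had a median of 0.86. LSS and DHCR7 had r = 0.86 (exact permutation p = 0.025, adjusted p = 0.11; rho = 0.71, exact permutation p = 0.14, adjusted p = 0.26), and r = 0.80 without black replicate 1 and grey replicate 2. HMGCS1 and IDI1 had r = 0.77 (exact permutation p = 0.061, adjusted p = 0.15; rho = 0.83, exact permutation p = 0.058, adjusted p = 0.15), and r = 0.71 without black replicate 1 and grey replicate 1. IDI1 and FDFT1 had the lowest value of the 5 steps, r = 0.63 (exact permutation p = 0.18, adjusted p = 0.28; rho = 0.66, exact permutation p = 0.18, adjusted p = 0.26). Without black replicates 1 and 2, the libraries farthest from the median of IDI1, it was 0.04, so the pooled value depended on those libraries. For this pair r was 0.93 over 6 libraries once each colour was centred on its own mean. With each colour centred on its own mean, the median r over the 21 pairs was 0.85, so the shared profile was also present within the colours. The 6 pairs with INSIG1 then had r between 0.18 and 0.61, and the 15 enzyme pairs had a median of 0.89.

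Set against the mean of the other 6 genes, LSS followed the rest most closely (r = 0.98) and HMGCS1 next (r = 0.93). SQLE had 0.83, FDFT1 0.81, DHCR7 0.75 and IDI1 0.72. INSIG1 had 0.20. These are descriptions over 6 libraries without a test, since the same libraries and the same normalisation enter both sides. INSIG1 amounted to 12.4%, 7.90% and 13.2% of the summed TPM of the 6 enzymes in black skin, against 8.27%, 8.33% and 7.53% in grey skin. The share was similar in 4 libraries and higher in black replicates 1 and 3.

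**Figure D3:**
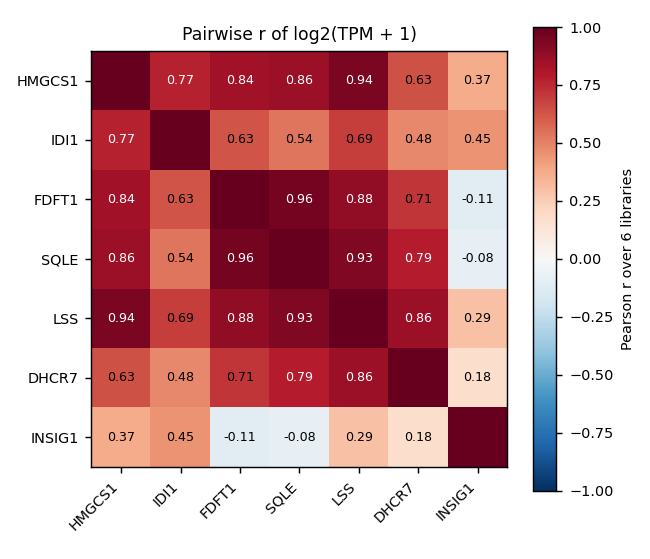
Pearson's r of log2(TPM + 1) over 6 libraries for each pair of the 7 genes, from -1 (blue) to 1 (red), with the enzymes in pathway order. The enzymes form a red block with values of 0.48 to 0.96, and the row of INSIG1 lies between -0.11 and 0.45.

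A common profile was taken as the mean of the standardised levels of the 7 genes. It was -1.03, 0.89 and -0.05 in black skin and -0.64, 1.00 and -0.16 in grey skin. Its r with aligned gigabases was 0.41, with the percentage of TPM in RefSeq genes 0.33 and with the number of transcripts 0.05. Genes with r of 0.9 or more to the profile numbered 123 of the tested genes (0.790%), and the median r over all tested genes was -0.03. Outside the gene lists, the 5 most alike were KRT222, CEBPA and STIP1 (r = 0.99 each), FARSB and ODR4 (r = 0.98 each). KRT222 was low, at 0.44 to 1.81 TPM. CEBPA, a transcription factor of differentiating keratinocytes, sebocytes and adipocytes, had 39.9, 49.8 and 45.5 TPM in black skin and 41.7, 51.5 and 45.7 TPM in grey skin. STIP1, a co-chaperone of HSP70 and HSP90, had 75.6, 98.2 and 86.4 TPM in black skin and 80.1, 97.0 and 88.1 TPM in grey skin. These genes were ranked on the same 6 libraries, so their r is a description.

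The other enzymes of the route were read in the same way, from lists of genes. Several genes named from here on were picked after their values were seen: MVK, PMVK, GGPS1, SREBF2, INSIG2, NPC1, TMEM97, STARD4, LIPA, NCEH1, ME1, KRT79, MGST1, DGAT2, CASP14, TGM3, ABCA12, CDSN and DSC1. Of 8 further enzymes of the mevalonate and isoprenoid branch, 0 passed the test of colour in either direction (limma), and 6 had r above 0 with the profile, with a median of 0.66. MVK (r = 0.96) and PMVK (r = 0.87), the kinases that phosphorylate mevalonate, followed it. So did ACAT2 (r = 0.93), the thiolase that starts the route, and GGPS1 (r = 0.72), which makes geranylgeranyl diphosphate. ACAT2 had 31.6, 58.1 and 45.5 TPM in black skin, against 31.5, 62.6 and 52.4 TPM in grey skin. In each colour its highest library was replicate 2 and its lowest replicate 1, as for HMGCS1, which acts on the next reaction. FDPS, the synthase of farnesyl diphosphate and thus the direct source of the substrate of FDFT1, had r = -0.28. FDPS had 52.7, 53.6 and 53.8 TPM in black skin, against 71.8, 48.5 and 39.4 TPM in grey skin, and was highest in the shallowest library. DHDDS, of dolichol synthesis, had r = 0.35.

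From lanosterol to cholesterol, 5 of 7 listed enzymes were found by symbol and tested, and 0 passed the test of colour (limma). All 5 had r above 0 with the profile, with a median of 0.64. HSD17B7 (r = 0.87) and MSMO1 (r = 0.81) were the nearest. MSMO1, the sterol-C4 methyl oxidase, had 58.5, 105.2 and 76.4 TPM in black skin, against 69.1, 80.2 and 85.7 TPM in grey skin. SC5D, the desaturase that supplies the substrate of DHCR7, departed from the others with r = 0.06. It had 98.4, 68.0 and 89.1 TPM in black skin, against 122.3, 160.0 and 70.0 TPM in grey skin. In black skin, replicate 2 was thus the lowest for SC5D and the highest for DHCR7.

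Genes of the sensing machinery had no common direction relative to the profile, with r above 0 for 4 of 10. Of 10 tested genes of sterol sensing and SREBP processing, 0 passed the test (limma) and 1, ERLIN1, had an unadjusted p under 0.05. The median r with the profile was -0.15. SREBF2, which encodes SREBP-2 and is activated by cleavage of its protein, had 55.4, 49.4 and 48.3 TPM in black skin, against 52.5, 56.9 and 61.6 TPM in grey skin, with r = -0.14. SREBF1, the paralogue that acts mainly on fatty acid synthesis, had r = 0.02. INSIG2, the paralogue of INSIG1, ran opposite to the profile with r = -0.70, at 19.3, 9.24 and 20.7 TPM in black skin and 11.5, 8.38 and 11.8 TPM in grey skin. It was lowest in the same replicates 2 in which the enzymes were highest. ERLIN1, of the complex that removes sterol-sensing proteins from the endoplasmic reticulum, had 70.9, 97.3 and 96.7 TPM in black skin and 50.4, 71.6 and 56.1 TPM in grey skin. Its groups overlapped by 1 library, and its adjusted p was 1.00 (limma). ERLIN2 had r = 0.25.

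**Figure D4:**
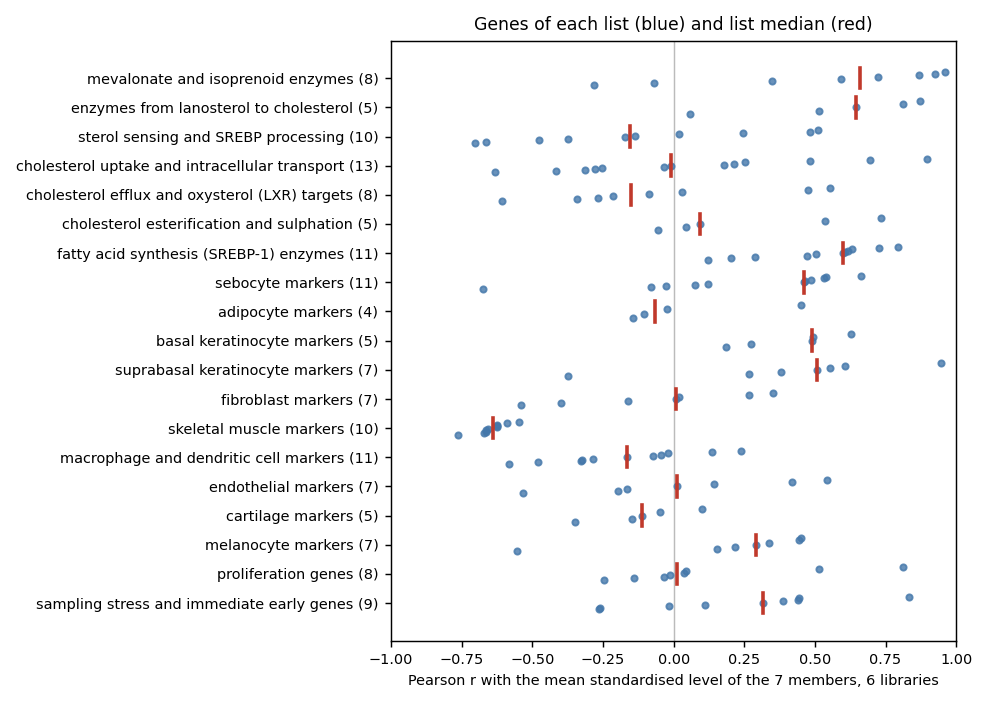
Pearson's r over 6 libraries between single genes and the mean standardised level of the 7 genes (horizontal axis), 1 row per gene list with the number of tested genes in brackets, genes in blue and the list median in red. The enzymes of the mevalonate branch (median 0.66), from lanosterol to cholesterol (0.64) and of fatty acid synthesis (0.60) lie to the right, and skeletal muscle markers (-0.64) to the left.

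For uptake and transport inside the cell, 13 of 15 listed genes were tested, 0 passed (limma) and the median r with the profile was -0.01. TMEM97, an SREBP target that regulates the transporter NPC1, had r = 0.89, whereas NPC1 itself had -0.42. SCARB1, the receptor that takes up cholesterol esters from lipoproteins, had 172.8, 163.5 and 109.7 TPM in black skin, against 375.2, 419.7 and 144.3 TPM in grey skin. The groups overlapped, as grey replicate 3 lay among the black libraries, and the log2 fold change was -0.95 (limma unadjusted p = 0.061). STARD4, a sterol carrier of the cytosol and an SREBP-2 target, had 20.4, 32.9 and 16.6 TPM in black skin, against 40.5, 57.0 and 41.3 TPM in grey skin. Every black library was below every grey one, as for 2.28% of all tested genes. The log2 fold change of -0.999 had an unadjusted p of 0.0097 and an adjusted p of 1.00 in limma. LIPA, of the same list, had every black library above every grey one, as for 4.06% of all tested genes. SCARB2 and NPC2, both lysosomal, had log2 fold changes of 0.37 and 0.20. Of 8 genes of efflux and oxysterol response, 0 passed (limma) and the median r was -0.15. APOC1, an apolipoprotein and the highest of them, had r = -0.61, LPCAT3 0.47 and NR1H2 -0.09.

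Of 5 tested genes of cholesterol esterification and sulphation, 0 passed (limma). An unadjusted p under 0.05 was found for 2 of them, with opposite signs, against 356 of all 15576 tested genes. The other 3 overlapped between the colours. SOAT1, which esterifies cholesterol for storage, had 244.8, 180.6 and 142.2 TPM in black skin, against 402.6, 481.3 and 300.0 TPM in grey skin. Every black library was below every grey one, as for 2.28% of all tested genes. NCEH1, which hydrolyses cholesterol esters, had the opposite sign, with 6.88, 8.37 and 6.19 TPM in black skin, against 3.38, 3.06 and 4.64 TPM in grey skin. Its black libraries were all above the grey ones, as for 4.06% of all tested genes. The unadjusted p was 0.0053 for SOAT1 and 0.011 for NCEH1, and the adjusted p was 1.00 for both (limma). SULT2B1, which makes the cholesterol sulphate of the epidermis, had r = 0.54 with the profile and LCAT 0.09.

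Fatty acid synthesis, which is driven by SREBP-1, shared part of the pattern. All 11 tested enzymes had r above 0 with the profile, with a median of 0.60. Of the 11, 10 had a log2 fold change below 0, with a median of -0.26, and 0 passed the test (limma). SCD, the desaturase of stearoyl-CoA, had 1407, 2760 and 1257 TPM in black skin, against 2451, 3039 and 1152 TPM in grey skin. The elongases ELOVL6 (log2 fold change -1.03, unadjusted p = 0.039) and ELOVL5 (-0.61, unadjusted p = 0.22) had adjusted p of 1.00 in limma. ME1, the malic enzyme that supplies NADPH, had an unadjusted p of 0.039 (limma). Its black libraries were all below the grey ones, as for 2.28% of all tested genes. Of 14 listed markers of sebocytes, the cells of sebaceous glands, 11 were tested. These summed to 1107, 1428 and 1057 TPM in black skin and 1572, 2048 and 1383 TPM in grey skin. None of the 11 was at 0 in any library, and their lowest value was 0.24 TPM. Of the 11, 0 passed (limma) and 9 had a fold change below 0, against 6711 of all 15576 tested genes. MGST1 (0.25) and DGAT2 (0.15) were above 0, and KRT79 had a log2 fold change of -0.82. Their part in the values of SOAT1, SCARB1 and the fatty acid enzymes was not tested.

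Markers of keratinocytes and sebocytes had median correlations above 0 with the profile of the 7 genes. The median r with the profile was 0.49 for 5 basal markers, 0.51 for 7 suprabasal markers and 0.46 for the sebocyte markers. CASP14, a protease of the cornifying layer, had r = 0.95, with 50.5, 124.5 and 86.8 TPM in black skin and 49.5, 115.7 and 88.2 TPM in grey skin. In each colour its highest library was replicate 2 and its lowest replicate 1, as for HMGCS1, but not for DHCR7, which was lowest in replicate 3. The other suprabasal markers were less alike, from r = -0.38 for TGM3 to 0.61 for ABCA12, with CDSN at 0.27 and DSC1 at 0.38. Markers of fibroblasts (0.01), endothelium (0.01), macrophages (-0.17), cartilage (-0.11) and adipocytes (-0.06) had medians near or below 0, as had proliferation genes (0.01). A median above 0 was not limited to keratinocytes and sebocytes. Melanocyte markers had 0.29, and sampling stress and immediate early genes had 0.32, with 6 of 9 tested genes above 0. Skeletal muscle markers had -0.64, and all 10 were highest in black replicate 1. With black replicate 1 left out, the median r over the 21 pairs was 0.67. The part of cell makeup in the shared profile was not tested.

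The assembled transcripts were next compared, because the forms of a gene can differ while its total does not; these features were chosen after the data were seen. For LSS, the leading transcript had 22 exons in 6 of 6 libraries, for SQLE and HMGCS1 11, for FDFT1 8, for INSIG1 6 and for IDI1 5. For DHCR7 it had 8 exons in 5 libraries and 9 in black replicate 2. Most of HMGCS1 ended short of the annotated gene, at position 409159574 of chromosome 1, which is 1723 bases inside the RefSeq end. This shorter 3′ end carried 58.8%, 69.8% and 55.4% of HMGCS1 TPM in black skin, against 58.5%, 63.2% and 62.3% in grey skin. The share was 61.3 ± 7.50% in black skin and 61.4 ± 2.51% in grey skin (SD, n = 3 each), the same in both within their spread. It was highest in black replicate 2.

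DHCR7 had the most forms, 44 assembled transcripts in all and 4 to 10 per library. Transcripts starting within 1000 bases of the RefSeq start carried 69.0%, 65.1% and 59.5% of its TPM in black skin, against 75.4%, 52.4% and 56.7% in grey skin. In grey replicate 2, where DHCR7 was highest, the share from this start was the lowest of the 6 libraries, at 90.6 TPM from it and 82.4 TPM from inside the gene. The groups overlapped. Starts are those of assembled transcripts and were not measured directly. The 22 exons of LSS gave a view of evenness along a long transcript. Mean coverage of the 5 exons after the first one, divided by that of the last 5 before the final exon, was 0.56, 0.61 and 0.55 in black skin, against 0.68, 0.61 and 0.64 in grey skin. LSS thus had more coverage towards the 3′ end in all libraries, and this ratio had r = 0.04 with the profile of the 7 genes. It was examined for LSS only.

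**Figure D5:**
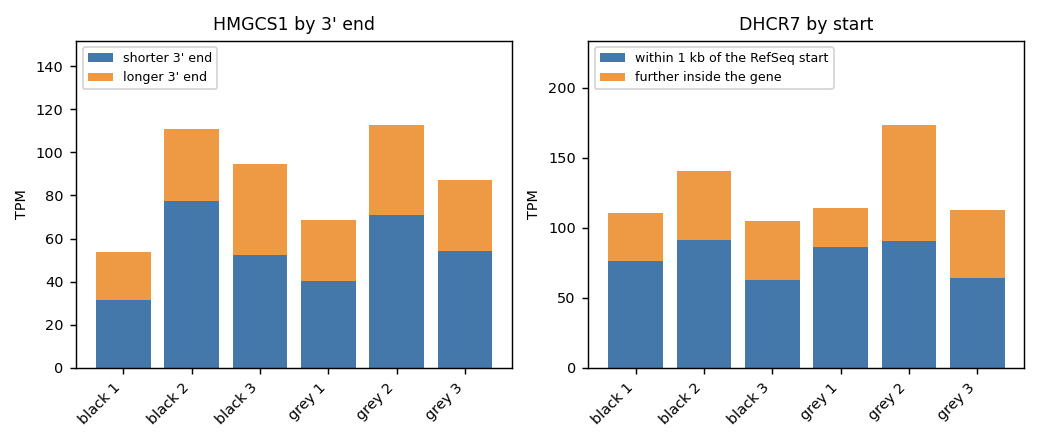
TPM per library (vertical axis, stacked from 0) of HMGCS1 transcripts by 3′ end and of DHCR7 transcripts by start, with black libraries left of grey ones. The shorter HMGCS1 end makes up 55.4% to 69.8% of the total, and the DHCR7 share within 1 kb of the RefSeq start runs from 52.4% to 75.4%.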

How the data were processed

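Strand-specific libraries of poly(A) RNA were made from 250 ng of DNase-treated RNA per possum and read as single ends of 120 bp. As the paper and the submitters' processing notes state, Trim Galore (version 0.6.10) was used by the authors for trimming, HISAT2 (version 2.2.1) for mapping and StringTie (version 2.2.0) for assembly per library, after reads from an amplicon had been taken out. The deposited files give coverage, FPKM and TPM per assembled transcript. These are not counts, so no count model was used. Dividing coverage by FPKM gave the aligned bases. Coverage times transcript length, divided by read length, gave read numbers.

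RefSeq gene spans for assembly mTriVul1.pri carried neither exons nor strand here, so both were inferred from assembled transcripts matching a span (joint overlap of at least 0.5, or 80% of one inside the other). Of 274079 transcripts, 231524 were assigned by same-strand exon overlap and 694 by the gene name in the files. TPM was summed per gene. Reads shared between near-identical copies could not be separated.

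The colours were compared by limma (version 3.58.1, R version 4.3.3) with a trend of variance on level. Genes averaging 1 TPM or more, 15576 in all, entered as log2(TPM + 1), and p-values were adjusted by the Benjamini-Hochberg method. This step was tested on simulated data. Pairs of genes were tested by exact 2-sided permutation over 720 pairings (numpy version 2.4.6). Pseudocount, filter, scaling, variance model and library weights were varied. Multi-exon transcripts only, a replicate block, centring by colour and leaving out each library were also tried, and a fixed length per gene was added after seeing the data.

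The 7 genes and 19 further lists were chosen with earlier results of these data known. Named genes were the 7, the 3 of highest level in each pathway list, any list gene past the threshold, and the 5 outside the lists most like the 7. Exceptions are named as such. The rule for the set names 10 genes, of which 3 are not reported here. No gene sequence was used.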

Additional observations from a re-analysis of the deposited data

How the results depend on the processing

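For each of the 7 genes, 15 alternatives were run, and 0 genes passed limma's adjusted threshold under any of them. The smallest adjusted p was 0.99 and the smallest unadjusted p 0.038, for INSIG1 without grey replicate 2. Of the 105 fold changes under alternatives, 100 kept their direction and 5 reversed, all on leaving out 1 library. Without black replicate 1, the log2 fold change was 0.22 for HMGCS1 and 0.021 for LSS. Without grey replicate 2 it was 0.092 for HMGCS1, 0.032 for LSS and 0.053 for DHCR7. Over all libraries left out in turn it lay between -0.29 and 0.22 for HMGCS1, 0.015 and 0.54 for IDI1, -0.33 and -0.040 for FDFT1, -0.49 and -0.13 for SQLE, -0.22 and 0.032 for LSS, -0.28 and 0.053 for DHCR7, and 0.23 and 0.52 for INSIG1. The ends of these ranges came without black replicate 1 or 2 or grey replicate 2, except the lower end for INSIG1, without black replicate 3. The median fold change of the 7 genes lay between -0.28 and 0.05 when 1 library was left out, and so has no stable sign. The median r over the 21 pairs, 0.69, was 0.78 with a fixed length per gene, 0.85 with each colour centred and 0.65 to 0.79 without 1 library. The median r between consecutive enzymes, 0.86, was 0.90 with a fixed length, 0.93 with each colour centred and 0.83 to 0.91 without 1 library. The size of these shifts was judged against the SD of the values without 1 library, a yardstick chosen after seeing the data. The cause of the shifts was not tested. Over all tested genes, 0 to 8 were called by limma, against 3 as reported, with 8 for a fixed length per gene and 0 without black replicate 3, without grey replicate 2 and with the replicate block; 1 was called with a mean of at least 5 TPM or without black replicate 2. Replicate numbers recur in both colours, but nothing says that they pair animals, and deviations of same-numbered libraries over all tested genes correlated at -0.02, 0.02 and -0.05. With the replicate block, the median fold change stayed at -0.10 and 0 of the 7 genes passed. For the 7 genes alone, same-numbered libraries deviated to the same side, by medians of -0.25, 0.33 and -0.04 in black skin and -0.20, 0.27 and -0.06 in grey skin. Assignment by the files' own gene names gave no value, since transcripts of these 7 genes carry none. With 3 animals per colour, differences of any size inside the intervals given remain compatible with the data.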

Other observations

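Ratios between steps of the route, chosen after the values were seen and not tested, did not all move as the totals did. SQLE over LSS, the consecutive enzymes that make and cyclise squalene epoxide, was 0.70, 0.83 and 0.72 in black skin, against 0.85, 0.85 and 0.90 in grey skin. Every black library was below every grey one, but how many other ratios separate the colours in this way was not counted. HMGCS1 over SQLE was 3.41, 4.17 and 4.83 in black skin, against 3.21, 3.76 and 3.51 in grey skin, and overlapped. HMGCS1 over IDI1 was 1.29, 1.28 and 1.67 in black skin, against 1.57, 2.01 and 1.92 in grey skin, and overlapped by 1 library.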
